A study of Mus musculus with 108 samples.

Results

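The subiculum is the output region of the hippocampus, and its pyramidal cells are commonly sorted by how they fire when current is injected. Compared here are the 21 mouse subiculum pyramidal cells labelled as burst firing and the 14 labelled as regular firing, which are 35 of the 93 single neurons sequenced in the series. Members were taken from the cell type in the labels and not by an expression value, though the comparison was set with earlier results of these data known. Every one of these cells was a single neuron from postnatal weeks 3 to 4, and its cDNA was made with version 4 of a SMARTer kit and tagmented with Nextera reagents. The labels name no strain, genotype, sex or animal for a cell, so cells cannot be assigned to mice and each firing type was treated as 1 sample. The other libraries of the series were neurons of other types and 15 hippocampal tissue samples.

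Burst-firing cells answer a depolarising step with a short, high-frequency group of action potentials, while regular-firing cells give single action potentials spaced in time. In pyramidal neurons, bursting is known to depend on voltage-gated calcium channels and persistent sodium current, and it is opposed by potassium channels such as Kv7 and calcium-activated channels. Pyramidal cells of the hippocampus also differ along its axes in cadherins, contactins and transcription factors, which mark cells of different position and projection.

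Values below are in CPM, the reads of a gene per 1000000 reads assigned to genes in the same cell or, where called pooled, in the summed reads of a firing type. Reads per cell ranged from 424244 to 2735336 in burst cells (median 909090) and from 94342 to 2217104 in regular cells (median 1204765.5). With cells thinned to 200000 reads, which left out 1 regular cell, the median number of genes with a read was 8979 in burst cells (6937 to 10112) and 8951 in regular cells (7027 to 10471). Reads of transcripts that mark glutamatergic pyramidal neurons were found in every cell of both types. Slc17a7, the vesicular glutamate transporter VGLUT1 (chromosome 7, 45163949 to 45176142 in mm10), had a lowest, median and highest value of 503, 1296 and 2499 CPM in burst cells and of 751, 1787 and 2501 CPM in regular cells. Camk2a, a kinase of excitatory neurons, had 188, 606 and 1299 CPM and 312, 603 and 1558 CPM. The subiculum cells carry label numbers with 1 wide gap, and the types were unequally spread over it, with 13 burst and 3 regular cells in the lower run and 8 burst and 11 regular cells in the upper run. The labels do not say what the numbers stand for, so values within each run are also given for genes past the rule whose direction differs between the runs. Reads of Y-linked genes were found in 34 of the 35 cells and reads of Xist in 1.

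A gene was counted as measured at 10 or more pooled CPM in either type. It passed the 2-fold rule when the ratio of pooled CPM and the ratio of mean CPM over cells were both at least 2 in the same direction and the pooled ratio stayed at least 2 with any 1 cell left out. Of the 10096 measured genes, 577 passed (5.72%), of which 331 had higher values in regular cells (3.28% of those measured) and the others in burst cells (2.44%). The median log2 ratio of burst over regular cells across all measured genes was −0.02. With 1 sample per type there is no test of these differences. Intervals in the text are exact binomial 95% intervals of a ratio of pooled CPM, which cover counting error alone and neither the spread between cells nor the amplification of single molecules by PCR.

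**Figure D1:**
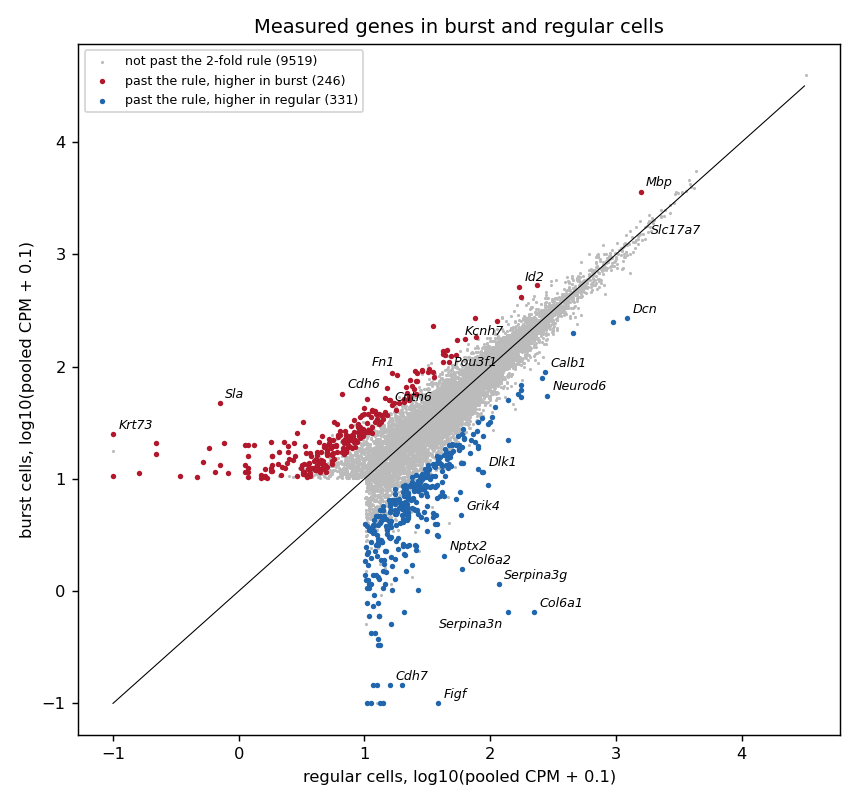
Pooled CPM of each of the 10096 measured genes in the 14 regular cells (x axis) and the 21 burst cells (y axis), both as log10(CPM + 0.1), with the line of equal values. Genes past the rule in burst cells (red) lie above the line and the 331 in regular cells (blue) below it, with Col6a1, Serpina3n and Figf far to the lower right and Krt73 and Sla to the upper left.

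The 4 genes taken as markers of the types, with earlier results of these data known, were Cdh6 and Cntn6 for burst cells and Serpina3n and Col6a1 for regular cells. Cdh6, a type II cadherin of cell adhesion (chromosome 15, 13028701 to 13173675), had a lowest, median and highest value of 0, 25.9 and 505 CPM over burst cells and of 0, 0 and 26.9 CPM over regular cells. The types overlapped at the low end, since 4 burst cells had no read of it, but 12 of 21 burst cells and 2 of 14 regular cells had at least 20 CPM. Pooled Cdh6 was 57.2 CPM in burst and 6.48 CPM in regular cells, 8.83-fold higher in burst cells (interval 7.24 to 10.9). Cntn6, a contactin of the immunoglobulin family (chromosome 6, 104492790 to 104863406), had values of 0, 40.1 and 264 CPM in burst and 0, 0 and 84.9 CPM in regular cells. At least 20 CPM of Cntn6 was found in 15 of 21 burst and 3 of 14 regular cells, and the pooled ratio was 4.27 (interval 3.73 to 4.91).

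Serpina3n, a secreted inhibitor of serine proteases (chromosome 12, 104406729 to 104414329), was near absent from burst cells. Its highest value in any burst cell was 9.43 CPM, with reads in 3 of 21 cells, while 12 of 14 regular cells had reads, with a median of 70.0 and a highest value of 626 CPM. Pooled values of 0.55 and 138 CPM gave a 251-fold ratio (interval 143 to 486; log2 ratio −7.97, and −6.82 without regular cell 13). The types overlapped, since regular cells 2 and 7 had no read of it. Serpina3g, a close paralog outside the naming rule and singled out after its values were seen, had 1.05 and 116.4 pooled CPM (log2 ratio −6.79, −5.94 without regular cell 13 and −9.22 at the farthest with another cell left out), and how reads were divided between such paralogs is not given in the sources used here. Col6a1, the alpha 1 chain of type VI collagen (chromosome 10, 76708792 to 76726168), had reads in 2 of 21 burst cells, at most 21.21 CPM, and in 9 of 14 regular cells, with a median of 28.07 and a highest value of 1010.2 CPM. Its pooled ratio was 408-fold in favour of regular cells (interval 233 to 791; log2 ratio −8.67, and −7.73 without regular cell 4). Here 5 regular cells had no read and so overlapped with the burst cells.

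**Figure D2:**
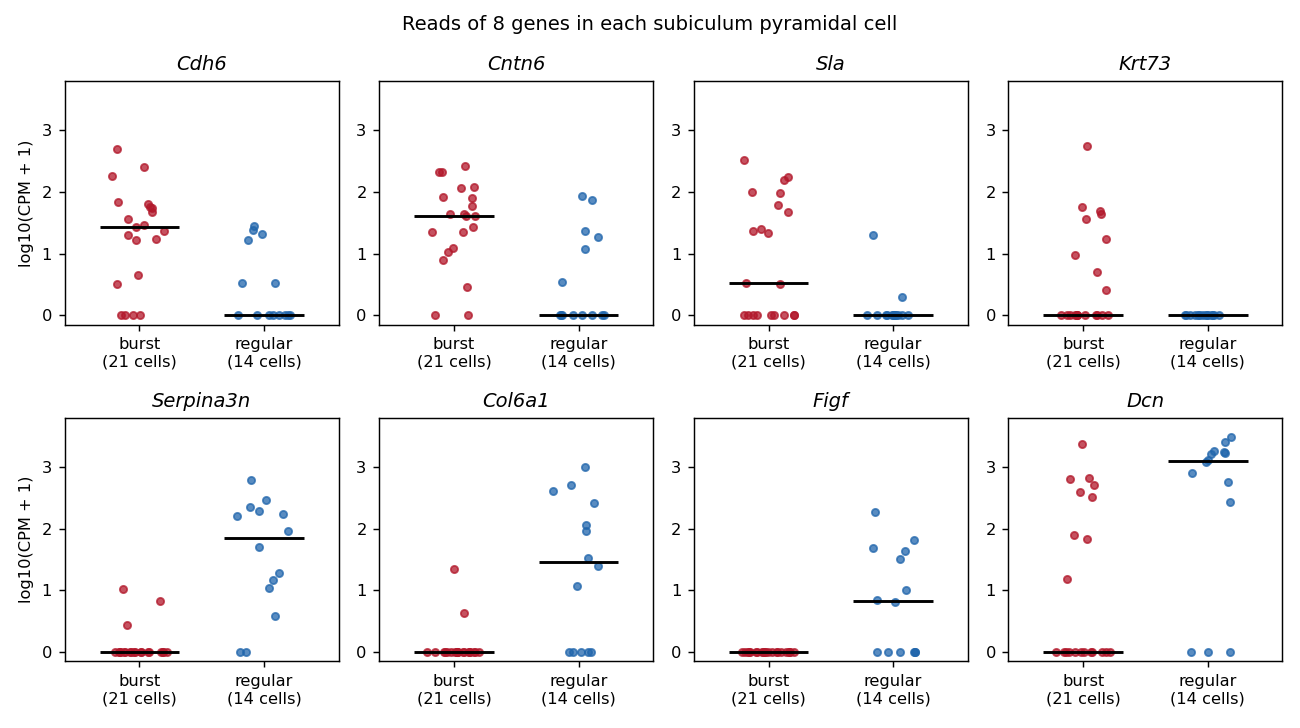
Each point is 1 cell, with log10(CPM + 1) of the gene on the y axis, burst cells (21) in red and regular cells (14) in blue, and a bar at the median; horizontal scatter within a type carries no value. Serpina3n, Col6a1 and Figf are at or near 0 in almost all burst cells, whereas Cdh6, Cntn6, Sla and Krt73 are at 0 in part of the burst cells too.

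Taken by cell, the pairs seldom met. Serpina3n or Col6a1 reached 20 CPM in 11 of 14 regular cells and 1 of 21 burst cells, and both did so in 5 regular cells and no burst cell. Cdh6 or Cntn6 reached 20 CPM in 17 of 21 burst and 5 of 14 regular cells, and both did so in 10 burst cells and no regular cell. One gene of each pair was found together in burst cell 4 and in regular cells 1 and 7. In burst cells 2, 3, 11 and 17 none of the 4 genes reached 20 CPM.

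The 15 genes of at least 20 pooled CPM with the largest gain in the share of thinned cells with a read, in each direction, held further genes with cell-to-cell patterns of this kind. In burst cells these were Cdh6, Cntn6, Mboat2, Ebf4, Slc25a18, Cnot6, Pip5k1b, Ndst4, Cntn4, Sla, Bambi, Ptger3, 2310042E22Rik, Krt73 and Ipcef1. Ndst4, an enzyme that modifies heparan sulfate (chromosome 3, 125404076 to 125728899), had reads in all 21 burst cells, with a lowest, median and highest value of 5.67, 87.5 and 206 CPM, and of 0, 3.51 and 262 CPM in regular cells, a 2.88-fold pooled ratio (interval 2.62 to 3.18). Cntn4, another contactin, had values of 9.24, 85.9 and 503 CPM in burst and 0, 2.78 and 173 CPM in regular cells, of which 7 had a read. Both genes thus had reads in every burst cell, and the regular cells ranged from 0 to above the highest burst cell for Ndst4 and into the burst range for Cntn4.

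Several burst-high genes were found in part of the burst cells. Sla, an adaptor protein of Src-type signalling (chromosome 15, 66780819 to 66831829), had 0, 2.36 and 332 CPM at the lowest, median and highest burst cell and at most 19.3 CPM in a regular cell, with a pooled ratio of 77.6 (interval 42.0 to 162). Krt73, a keratin gene (chromosome 15, 101793308 to 101802346), had no read in any regular cell and reads in 9 of 21 burst cells, of which burst cell 14 had 559 CPM. Against the limit of 3 reads in the pooled regular cells, equal to 0.182 CPM, Krt73 was at least 137.04-fold higher in burst cells (log2 7.098, and 6.09 without burst cell 14). In the 19 cells of the series labelled as CA1 cholecystokinin cells, Krt73 had 2155 pooled CPM. Those cells were prepared with version 3 of the kit, so this level is set beside the others and not compared. Bambi, a pseudoreceptor that dampens transforming growth factor beta signalling, had reads in 13 burst cells and 1 regular cell, at 20.7 and 2.66 pooled CPM. Ptger3, a receptor of prostaglandin E2, had reads in 14 of 21 and 3 of 14 cells, at 31.5 and 10.3 CPM.

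On the regular side the 15 genes were Serpina3n, Col6a1, 2810006K23Rik, Zfp14, Plxdc2, Figf, Wwox, Kcnip2, Pxdn, Cdh12, Rora, C4bp, Ptgs2, Mios and Ccdc93. Figf, the gene of vascular endothelial growth factor D (chromosome X, 164373378 to 164402650), had no read in any of the 21 burst cells and had reads in 8 of 14 regular cells, with a median of 5.78 and a highest value of 184 CPM. Its pooled 38.7 CPM in regular cells was at least 281-fold above the limit of 3 reads in pooled burst cells, 0.137 CPM (log2 −8.14, and −7.09 without regular cell 4). Cdh12, a type II cadherin (chromosome 15, 20449265 to 21589533), had values of 0, 0 and 37.0 CPM in burst and 0, 21.7 and 116.97 CPM in regular cells, where 12 of 14 had a read against 7 of 21. C4bp, a regulator of complement, had reads in 1 burst and 7 regular cells. Ptgs2, the inducible cyclooxygenase that makes prostaglandins, had 1.604 and 23.97 pooled CPM, but its log2 ratio was 1.46 in the lower run of label numbers and −5.26 in the upper run. Pxdn, a matrix peroxidase, had 12.8 and 45.8 pooled CPM, with log2 ratios of 0.082 and −2.26 in the same runs.

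**Figure D3:**
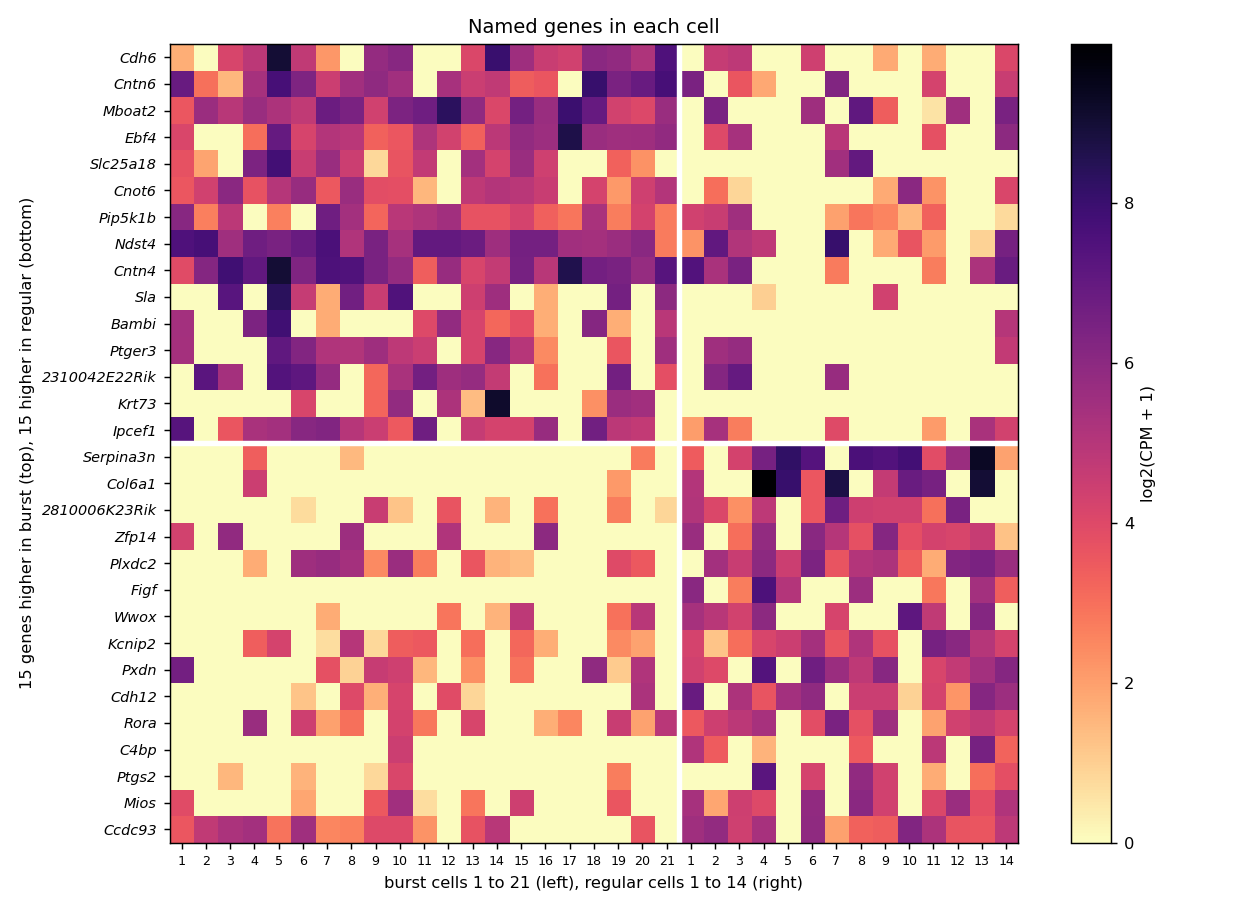
Colour gives log2(CPM + 1) of the 15 burst-high genes (top) and the 15 regular-high genes (bottom) in each of the 21 burst cells (left) and 14 regular cells (right). Columns of regular cells 2, 3, 7 and 14 are filled in both blocks, and regular cells 4, 12 and 13 mostly in the lower block.

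Since these 30 genes were picked by their difference, that they separate the cells is given as a description. After thinning, a burst cell had reads of 6 to 15 of the 15 burst-high genes (median 12) and of 1 to 7 of the regular-high genes (median 3). A regular cell had reads of 1 to 10 (median 4) and of 7 to 15 (median 12). The regular cells with the most burst-high genes were cell 3 with 10, cells 2 and 14 with 9 and cell 7 with 8.

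The 7 lists of ion channels and chloride transporters held 98 measured genes. These and the lists below were chosen with earlier results of these data known, so their shares past the rule are given as a description. Of these, 5 were past the rule in burst cells (5.10%, against 2.44% of all measured genes) and 7 in regular cells (7.14%, against 3.28%), and their median log2 ratio was 0.02. Among potassium channels, Kcnh7, an ether-a-go-go related channel (Kv11.3; chromosome 2, 62693414 to 63184287), had a lowest, median and highest value of 0, 165 and 501 CPM in burst and 0, 35.9 and 267 CPM in regular cells. At least 20 CPM was found in 19 of 21 burst and 8 of 14 regular cells, and the pooled ratio was 3.16 (interval 2.94 to 3.40). Kcnk12, a two-pore domain subunit, was also higher in burst cells, at 34.1 against 12.5 pooled CPM. Kcnh1, the founding ether-a-go-go channel, was higher in regular cells (8.89 and 24.5 CPM), with a log2 ratio near 0 (0.077) in the lower run of label numbers.

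Of 28 measured Kv1 to Kv4 genes and partners, 4 passed in regular cells and none in burst cells, against 3.28% and 2.44% of all measured genes, and the list's median log2 ratio was −0.26. Kcnv1, a silent subunit that alters Kv2 channels, had reads in 2 of 21 burst and 9 of 14 regular cells, at 0.504 and 12.9 pooled CPM (ratio 25.6, interval 14.01 to 52.0). Kcnip2, an auxiliary subunit of the Kv4 channels that carry A-type current (chromosome 19, 45791839 to 45816061), had values of 0, 0.731 and 30.5 CPM in burst and 0, 17.7 and 90.3 CPM in regular cells. Pooled Kcnip2 was 5.97-fold higher in regular cells (interval 4.85 to 7.42), while its partner channel Kcnd2, given from its list after the values were seen, had 39.3 and 39.8 CPM. Kcnab1, a beta subunit of Kv1 channels, had 18.5 and 56.8 CPM, and Kcns2, another silent subunit, 4.08 and 13.6 CPM. Kcns2 had a log2 ratio of 0.087 in the lower run of label numbers, and Kcnab1 one of 1.44 in the 6 burst and 3 regular cells with at most 500 CPM of other cell types' markers (Mbp and Dcn aside).

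Of 15 measured calcium channel genes, 1 was past the rule in each direction, where 2.44% of all measured genes passed in burst and 3.28% in regular cells. Cacna1i, a T-type (low-voltage-activated) channel, had 23.9 pooled CPM in burst and 8.90 in regular cells, with reads in 16 of 21 and 8 of 14. However, its log2 ratio was −1.16 in the 6 burst and 3 regular cells just mentioned, and 0.019 in the lower run of label numbers. Cacna1c, the L-type channel CaV1.2, had 5.27 and 19.9 CPM, higher in regular cells (ratio 3.78, interval 3.05 to 4.71). The other T-type genes, given from the list after their values were seen, did not pass: Cacna1g had 62.8 and 59.3 CPM and Cacna1h 79.9 and 51.8 CPM. Cacna1e, the R-type channel, likewise did not pass, at 424 and 223.8 CPM (ratio 1.89, interval 1.82 to 1.97).

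None of the 9 measured calcium-activated and Kv7 genes passed in either direction, where 5.72% of all measured genes passed. Kcnma1, the large-conductance calcium-activated channel, had 168 and 141 pooled CPM and was named from the list after its values were seen. Kcnq5, a Kv7 subunit, had 54.3 and 28.6 CPM, below the 2-fold limit. Of the 12 sodium channel genes and partners, Fgf11, an intracellular factor that binds sodium channels, passed in burst cells with 11.7 against 1.76 CPM, and none passed in regular cells. Scn8a, the channel Nav1.6, had 254 and 234.5 CPM. Among HCN channels, which carry the hyperpolarisation-activated current, Hcn2 had 33.3 and 44.4 CPM (log2 ratio −0.42) and was not past the rule. Hcn3 was past it in regular cells (7.75 and 26.6 CPM), but 17.1% of its exon bases are shared with Pklr in the annotation and its log2 ratio was 0.74 in the same 6 burst and 3 regular cells. Slc12a2, the chloride importer NKCC1, was higher in burst cells, at 22.6 against 7.45 CPM.

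Adhesion genes passed in both directions. Of the measured genes of the 6 adhesion lists, 5 passed in burst cells (4.63%, against 2.44% of all measured genes) and 11 in regular cells (10.2%, against 3.28%), with a median log2 ratio of −0.02. The lists hold the markers Cdh6 and Cntn6 and were chosen with earlier results known, so these shares are partly built in. Classical cadherins went both ways, with Cdh6 and Cdh8 higher in burst cells and Cdh7, Cdh12 and Fat4 in regular cells. Cdh7 (chromosome 1, 109982431 to 110140157) had 1 read in all burst cells and reads in 5 of 14 regular cells, the highest at 95.1 CPM. The pooled Cdh7 ratio was 343 with a counting interval of 61.1 to 13615. Cdh8 had 36.9 and 13.4 pooled CPM, and Fat4 2.61 and 11.1 CPM with a log2 ratio of 1.98 in the lower run of label numbers.

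Delta protocadherins, which mediate adhesion between like cells, also divided. Pcdh10 was higher in burst cells (50.7 and 15.9 CPM), with reads in 20 of 21 and 11 of 14 cells. Pcdh7, Pcdh8 and Pcdh9 were higher in regular cells, at 55.8, 79.0 and 176 CPM against 24.1, 26.6 and 67.9 CPM in burst cells, and 21.08% of the exon bases of Pcdh7 are shared with another annotated gene. Of the 15 measured contactins and their partners, Cntn4 and Cntn6 passed in burst cells and none in regular cells. The shares of all measured genes were 2.44% and 3.28%, and Cntn6 was taken as a marker with earlier results known. Cntn3 had 36.5 and 47.9 CPM. Cntn4 (chromosome 6, 105677660 to 106699310) lies on the same chromosome as Cntn6. Cntn4 did not keep its direction in the 6 burst and 3 regular cells with at most 500 CPM of other markers (Mbp and Dcn aside). Its log2 ratio was −0.038 there, and 0.057 in the lower run of label numbers.

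Among neurexins, neuroligins and partners, 2 of 20 measured genes were past the rule, both in regular cells, where 3.28% of all measured genes passed. Nptx2, a secreted pentraxin that clusters AMPA receptors (chromosome 5, 144545902 to 144557478), had reads in 3 of 21 burst cells, at most 61.6 CPM, and in 7 of 14 regular cells, at most 110.96 CPM. Pooled Nptx2 was 21.9-fold higher in regular cells (interval 16.1 to 30.5). C1ql3, a secreted C1q-like protein of synapses, had 13.5 and 40.6 CPM, with 64.2% of its exon bases shared with other annotated genes. Nrxn3, a neurexin, had 256 and 134.03 CPM and did not pass. Lrrc4, a netrin-G2 ligand, Dcc, the netrin receptor, and Dscam, an immunoglobulin adhesion protein, were higher in regular cells, with log2 ratios of −1.52, −2.34 and −1.26. Of 32 axon guidance genes, Robo1, a Slit receptor, and Plxnb1, a semaphorin receptor, passed in burst cells (25.1 and 13.2 CPM against 8.96 and 1.76 CPM). The share of all measured genes past the rule in burst cells was 2.44%. Plxnd1 passed in regular cells (4.31 and 14.8 CPM), although its log2 ratio was 2.04 in the same 6 burst and 3 regular cells.

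Of 14 measured collagens and other matrix genes, Col6a1, Col6a2 and Lamb1 passed in regular cells and Fn1 in burst cells, where 3.28% and 2.44% of all measured genes passed, and the median log2 ratio was −0.60. The list holds the marker Col6a1, taken with earlier results known, so the count in regular cells is partly built in. Col6a2 (chromosome 10, 76595762 to 76623630), the alpha 2 chain of type VI collagen on the same chromosome as Col6a1, had reads in 2 of 21 burst and 7 of 14 regular cells, with 1.47 and 59.7 pooled CPM (ratio 40.7, interval 28.7 to 59.9). Col6a3, the third chain gene, named from the list after its values were seen, had 0.825 and 6.66 CPM and was below the measured limit. Col1a1, a collagen of fibroblasts, had 0 CPM in burst and 0.303 CPM in regular cells, and Col3a1 0.0917 and 0.182 CPM. Lamb1, a laminin chain, had 5.59 and 13.98 CPM.

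Fn1, the gene of fibronectin and a gene known from part of the subiculum (chromosome 1, 71585520 to 71653200), had reads in 8 of 21 burst cells, the highest with 1207 CPM, and in 2 of 14 regular cells, the highest with 203.4 CPM. Pooled Fn1 was 4.60-fold higher in burst cells (interval 4.07 to 5.21; log2 ratio 2.20, 1.47 without burst cell 17 and 6.395 without regular cell 14), and 13 burst cells had no read of it. Dcn, which encodes the proteoglycan decorin (chromosome 10, 97479609 to 97518143), had a lowest, median and highest value of 0, 0 and 2390.2 CPM in burst cells and of 0, 1248 and 3029.6 CPM in regular cells. In burst cells 8 of 21 and in regular cells 11 of 14 had at least 20 CPM, and pooled values were 270.5 and 1219 CPM (ratio 4.51, interval 4.38 to 4.64). The log2 ratio of Dcn was −0.78 in the upper run and −3.53 in the lower run. Of the 8 regular cells with at least 20 CPM of Serpina3n, 7 also had at least 20 CPM of Dcn. Serpinb1a, an intracellular protease inhibitor, went the other way, with 20.8 and 0.666 pooled CPM and reads in 7 of 21 and 3 of 14 cells.

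Of 40 measured transcription factors of pyramidal neurons, 3 passed in burst cells and 6 in regular cells, against 2.44% and 3.28% of all measured genes. Their median log2 ratio was 0.16. Id2, an inhibitor of basic helix-loop-helix factors (chromosome 12, 25093799 to 25097140), was read in every cell of both types, at a lowest, median and highest value of 52.7, 402 and 1187 CPM in burst and 62.3, 184 and 415 CPM in regular cells. The ranges overlapped, and the pooled ratio was 3.03 (interval 2.91 to 3.16). Pou3f1, a POU-domain factor (chromosome 4, 124656807 to 124660655), had at least 20 CPM in 20 of 21 burst and 8 of 14 regular cells, with medians of 134.3 and 25.9 CPM. Foxp2, a forkhead factor, had 10.7 and 1.39 pooled CPM, with reads in 9 burst and 4 regular cells.

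Neurod6, a factor of pyramidal neurons of the forebrain (chromosome 6, 55677822 to 55681263), had a lowest, median and highest value of 0, 246.2 and 699.6 CPM in regular cells and 0, 50.1 and 273 CPM in burst cells. It had reads in 13 of 14 regular and 19 of 21 burst cells, and the ranges overlapped. Its pooled ratio was 5.15 (interval 4.83 to 5.49), with log2 ratios of −3.56 in the upper run and −0.44 in the lower run. Lhx2, a LIM homeodomain factor, had 8.62 and 27.4 CPM. Sox5 and Sox11 had 43.7 and 17.5 CPM in regular cells against 18.5 and 5.82 CPM in burst cells. Zbtb20, a factor of hippocampal pyramidal identity, had 8.62 and 34.2 CPM, but its log2 ratio was 1.76 in the lower run of label numbers. The ratio was 3.37 in the 6 burst and 3 regular cells with at most 500 CPM of other markers (Mbp and Dcn aside). Bcl11b, a factor of deep-layer and subicular neurons, had 135.5 and 71.3 CPM and did not pass.

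Genes known from subregions of the subiculum were split between the types. Of 16 measured, Fn1, Ndst4 and Tpbg passed in burst cells and Dlk1, Tesc and Cyp26b1 in regular cells, against 2.44% and 3.28% of all measured genes. Tpbg, a trophoblast glycoprotein, had 88.9 and 31.8 pooled CPM, with 23.5% of its exon bases shared with another annotated gene. Dlk1, a Notch-related membrane protein, had 11.5 and 87.2 CPM, and Cyp26b1, a retinoic acid hydroxylase, 0.55 and 20.5 CPM with reads in 5 of 21 and 5 of 14 cells. The log2 ratio of Cyp26b1 was −5.22, and −1.94 without regular cell 14. Nts, the neurotensin gene, had 101.02 and 60.1 CPM and did not pass (log2 ratio 0.75). Of 12 measured markers of other hippocampal fields, Fibcd1 and Grik4 were among those that passed in regular cells, and Pou3f1 passed in burst cells. Fibcd1, an acetyl-binding membrane receptor known as a CA1 marker, had medians of 0 CPM in burst and 42.2 CPM in regular cells.

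Receptor genes past the rule were found in both directions, where 2.44% of all measured genes passed in burst and 3.28% in regular cells. Grik4, the kainate receptor subunit GluK4 (chromosome 9, 42518135 to 42944493), was 1 of 23 measured ionotropic glutamate receptor genes and the sole one past the rule, with 4.63 and 58.7 pooled CPM and reads in 7 of 21 and 10 of 14 cells. The metabotropic glutamate receptor genes Grm8 and Grm2 had 106.7 and 217.1 CPM in burst and 33.8 and 113.99 CPM in regular cells without passing. None of 14 measured GABA receptor genes passed. Adra2c, an adrenergic receptor, was higher in burst cells at 33.8 and 14.04 CPM, with a log2 ratio of −0.57 in the lower run of label numbers. Sstr4 passed in burst cells (47.1 and 18.6 CPM), and Sstr3 (2.93 and 16.1 CPM) and Mc4r (3.44 and 15.01 CPM) in regular cells. Sstr3 and Sstr4 are somatostatin receptors and Mc4r is a melanocortin receptor, and the log2 ratio of Sstr3 was 2.53 in the lower run of label numbers.

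Peptides, calcium buffers and release genes showed the following. Tac1, the precursor of substance P, and Adcyap1, the precursor of PACAP, were higher in burst cells, at 10.6 and 30.7 CPM against 2.06 and 8.78 CPM. Chgb, a granin of dense-core vesicles, was read in every cell and was higher in regular cells, with medians of 180.4 and 417 CPM. Of 20 measured calcium buffers and sensors, 4 passed in regular cells and none in burst cells, against 3.28% and 2.44% of all measured genes. Calb1, the buffer calbindin (chromosome 4, 15881264 to 15908064), had a lowest, median and highest value of 0, 51.8 and 452 CPM in burst and 0.926, 304 and 859 CPM in regular cells, a pooled ratio of 3.09 (interval 2.93 to 3.26). Tesc, tescalcin, had medians of 54.1 and 150.5 CPM. Ncald, neurocalcin delta, had 79.8 and 256 pooled CPM and Necab1 8.30 and 36.2 CPM, but in the lower run of label numbers their log2 ratios were 0.98 and 3.05. Among 38 measured release genes, Syt10, a synaptotagmin, and Unc13c, the priming factor Munc13-3, passed in burst cells (11.4 and 24.6 CPM against 0.545 and 6.05 CPM), and none in regular cells.

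**Figure D4:**
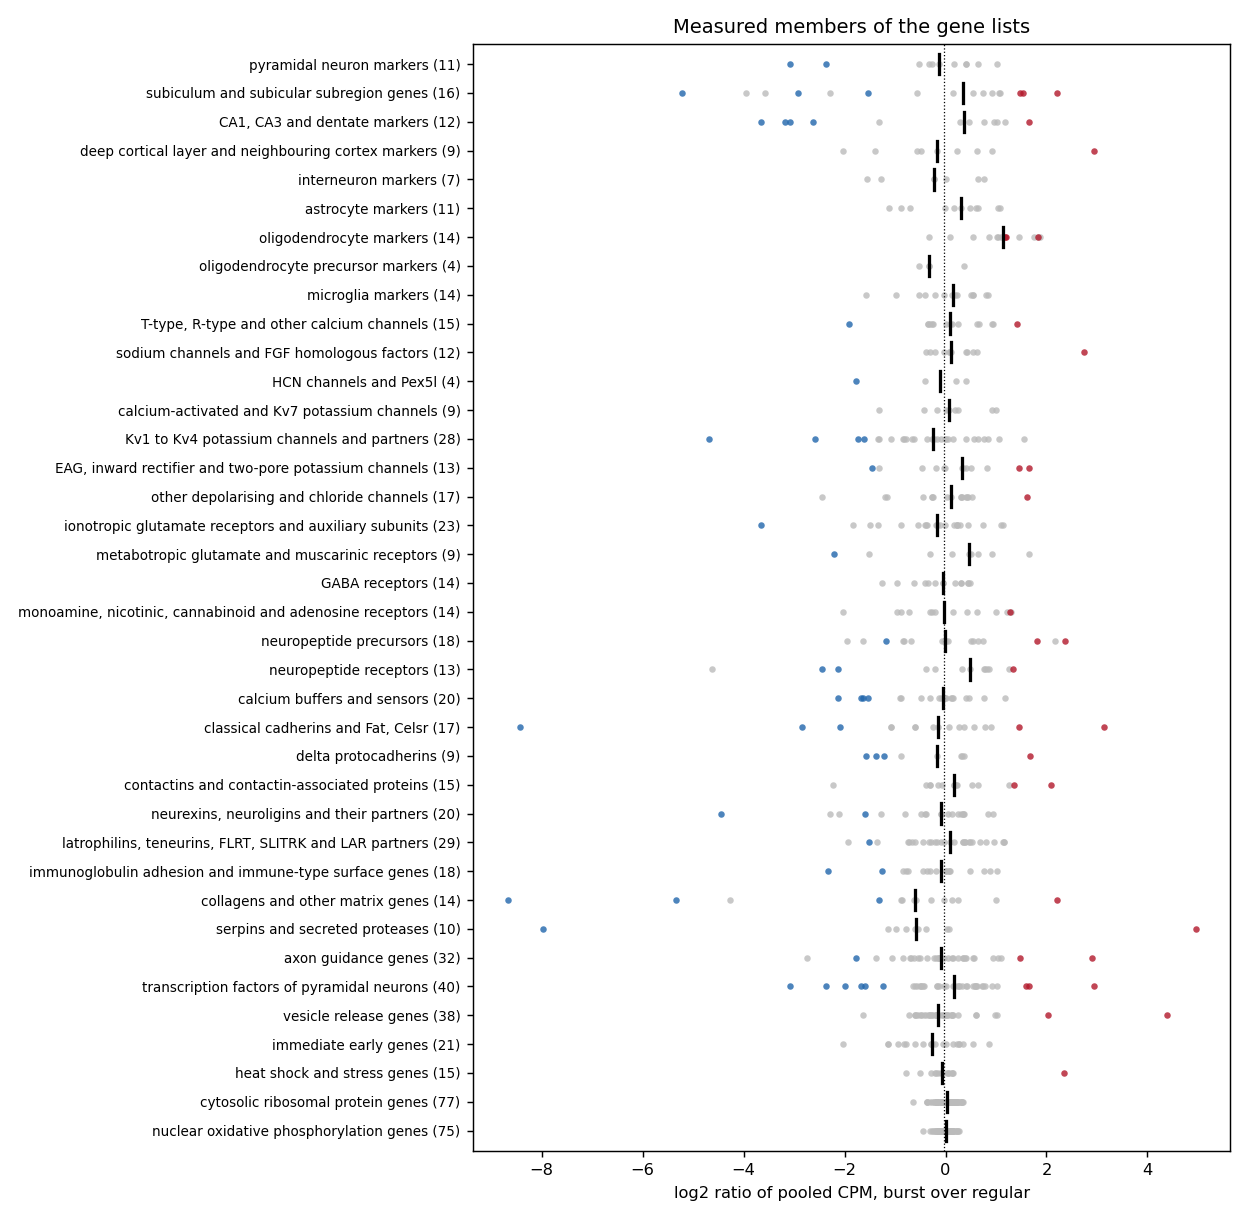
Each point is a measured gene of a list, placed by its log2 ratio of pooled CPM (burst over regular), in red or blue where it passed the 2-fold rule; black bars mark the list medians, the dotted line the median of all measured genes (−0.02), and the number after each name the measured members. Members past the rule lie on both sides in the lists of cadherins, delta protocadherins, matrix genes and transcription factors, and ribosomal and oxidative phosphorylation genes stay close to 0.

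No immediate early gene of 21 measured passed the rule, where 5.72% of all measured genes passed. Fos had 559.8 and 766 CPM and Arc 287 and 259 CPM, both named from the list after their values were seen. None of 77 measured ribosomal protein genes or 75 nuclear genes of oxidative phosphorylation passed, with median log2 ratios of 0.029 and 0.010. Of 15 heat shock and stress genes, Atf3 passed in burst cells.

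Transcripts of other cell types were present in both firing types. The 17 oligodendrocyte markers summed to 142 to 23623 (median 3941) CPM per burst cell and 337 to 12182 (median 1735) CPM per regular cell. Mbp and Mobp, genes of myelin proteins, were among those past the rule in burst cells, 13 of the 14 measured had a log2 ratio above 0, and the median was 1.13. Pooled Mbp was 3598 CPM in burst and 1573 CPM in regular cells, and every cell of either type had reads of it. Microglia markers summed to 11.98 to 2809.7 (median 628) CPM per burst and 92.9 to 2561 (median 667) CPM per regular cell, and none of 14 measured passed. Astrocyte markers summed to 134.99 to 6020.1 (median 769.5) and 148 to 2445 (median 566) CPM, with none of 11 measured past the rule. Of all measured genes, 5.72% passed in either direction. The endothelial, mural and fibroblast markers summed to 223.5 to 2929 (median 598) and 271 to 3808 (median 1798) CPM, and Dcn alone of 3 measured passed. Of the 17 genes on the endothelial, mural and fibroblast list, 3 were measured, and most of its reads came from Dcn and Bsg. Pooled, the list summed to 807 CPM in burst and 1790 CPM in regular cells, of which Dcn was 270.5 and 1219 CPM. Bsg had reads in every cell, at most 712 CPM in burst cell 10 and 764 CPM in regular cell 13. The sums thus say little of the other vessel and fibroblast genes. The markers of choroid plexus summed to 0 to 4758 (median 71.8) and 0 to 1249 (median 14.9) CPM, in which Ttr, a thyroid hormone carrier, had 352 and 163 pooled CPM. Every marker of these lists in the table had a read in the 35 cells together, though Col1a1 had none in burst cells, and the part of such RNA in the differences above was not tested.

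Interneuron markers, which include the enzymes that make GABA, summed to 29.9 to 860.4 (median 199.5) CPM per burst cell and 4.39 to 1958 (median 121.1) CPM per regular cell. None of 7 measured passed, where 5.72% of all measured genes passed. The highest value of Gad2 in a burst cell was 113.1 CPM. Regular cell 14 stood apart, with 227.7 CPM of Gad1 and 418 CPM of Gad2, the highest of any subiculum cell, and 751 CPM of Slc17a7, the lowest of the regular cells. Without that cell, 286 genes passed in burst and 305 in regular cells. When cells with more than 500 CPM of the defining markers of interneurons, glia and vessels other than Mbp and Dcn were left out, 6 burst and 3 regular cells remained, in which 719 genes passed in burst and 484 in regular cells. Mbp and Mobp had log2 ratios of −0.45 and −0.76 there.

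The ratios were also taken within each run of label numbers. The genes past the rule were picked on the cells of both runs together. Agreement in direction between the runs is thus partly built in, and the shares are given as a description. Of the burst-high genes, 93.9% had the same direction in both runs and 54.1% were at least 2-fold in both. Of the regular-high genes, 80.4% had the same direction in both and 54.1% were at least 2-fold in both, while 19.6% had the opposite direction in the lower run with its 3 regular cells. Log2 ratios in the upper and lower run were 4.86 and 1.51 for Cdh6, 3.66 and 0.55 for Cntn6, −7.50 and −4.56 for Serpina3n, and −9.21 and −4.37 for Col6a1. For Cntn6 the lower run was thus below 2-fold. The log2 ratio of 2310042E22Rik was −0.081 in the lower run and 3.77 in the upper run. Of genes not past the rule, Nts, Grm2, Cntn3, Gad1, Gad2, Cacna1h, Kcnd2, Scn8a and Arc also had opposite directions in the 2 runs. Col1a1 and Col3a1 had too few reads for a direction within a run.

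**Figure D5:**
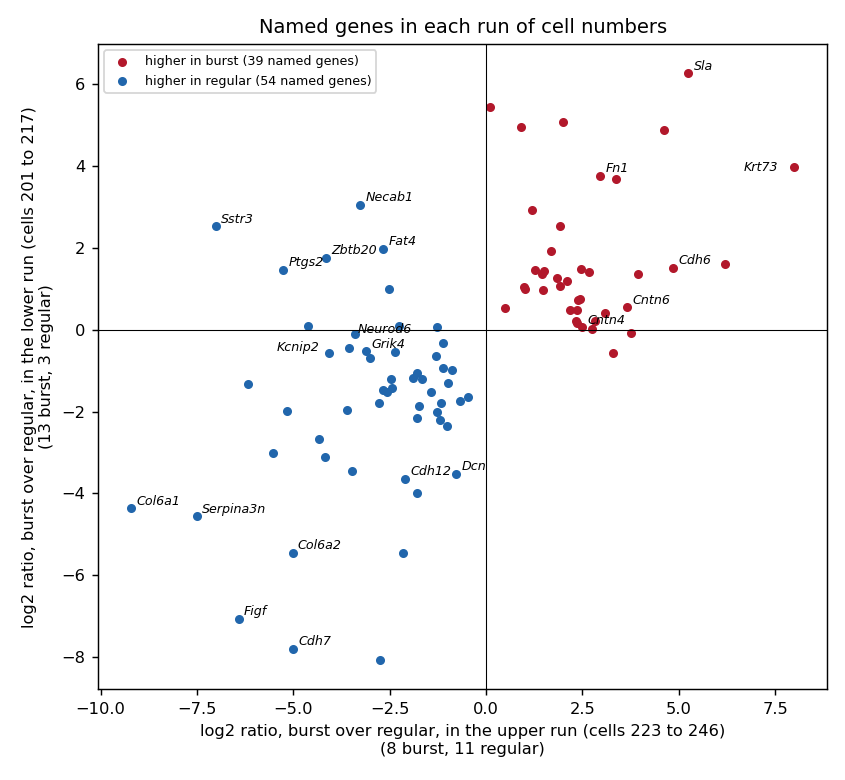
Each point is a named gene past the 2-fold rule, placed by its log2 ratio of burst over regular cells in the upper run of label numbers (x axis; 8 burst, 11 regular) and in the lower run (y axis; 13 burst, 3 regular). Most burst-high genes (red) lie in the upper right and most regular-high genes (blue) in the lower left, and Sstr3, Necab1, Fat4, Zbtb20 and Ptgs2 lie in the upper left. The genes were picked on the cells of both runs together.

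Single cells carried much of some ratios. Of the 93 named genes past the rule, 23 had a ratio more than 1.5 times nearer to 1 with 1 cell left out, and 40 one more than 1.5 times farther from 1. Without regular cell 4 the log2 ratio was −6.72 for Cdh7, −2.10 for Ptgs2, −2.99 for Grik4, −1.71 for Sstr3 and −1.19 for Pxdn. Without regular cell 13 it was −2.91 for C4bp and −2.15 for Dlk1, and without regular cell 11 −1.23 for Fat4 and −1.27 for Zbtb20. Leaving out regular cells 3, 6, 10, 12 and 14 in turn gave −1.07 for Mc4r, −1.52 for Necab1, −1.10 for Kcns2, −1.01 for Kcnab1 and −1.09 for Plxnd1. On the burst side, it was 2.27 for Bambi without burst cell 5, 2.11 for Plxnb1 without burst cell 17 and 2.83 for Syt10 without burst cell 21. All of these kept at least a 2-fold ratio, as the rule requires.

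Of the 40 genes with a ratio farther from 1, 9 moved by over 4 times. Besides Fn1, these included Mc4r (−5.07 without burst cell 7), Kcnv1 (−7.08 without burst cell 19), Serpinb1a (7.22 without regular cell 11), Slc25a18 (4.69 without regular cell 8) and Sla (8.56 without regular cell 9). C4bp and Bambi each had reads in 1 cell of the lower type, and without it they were at −7.19 (burst cell 10) and 6.71 (regular cell 14) against the limit of 3 reads. Of the 31 that moved less, the log2 ratio was 3.08 for Cntn6 without regular cell 1, −10.65 for Col6a1 without burst cell 4, −8.90 for Serpina3n without burst cell 20 and −3.09 for Dcn without burst cell 21. It was −6.26 for Nptx2 and −2.96 for Dcc without burst cell 18, −6.84 for Col6a2 without burst cell 2 and −2.93 for Zbtb20 without burst cell 8. Without burst cell 10 it was −5.47 for Ptgs2, −3.23 for Fibcd1, −2.78 for Fat4 and −2.55 for Mios, and without burst cell 20 −4.51 for Wwox, −3.54 for Dlk1 and −3.43 for Cdh12.

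Without burst cell 9, 2810006K23Rik was at −3.90 and Hcn3 at −2.51. Ratios of burst-high genes moved with single regular cells. They were 2.72 for Cacna1i and 2.19 for Robo1 without regular cell 1, 2.63 for Unc13c and 2.85 for Cnot6 without regular cell 10, and 3.66 for Plxnb1 and 5.77 for Syt10 without regular cell 11. Leaving out regular cell 3 gave 2.22 for Ptger3, 2.51 for 2310042E22Rik, 3.43 for Tac1 and 4.18 for Foxp2. Ebf4 and Adcyap1 were at 2.44 and 2.73 without regular cell 14, and Ipcef1 at 2.37 without regular cell 13.

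Across whole profiles the types were close. The Pearson correlation of log2(CPM + 1) over the 10096 measured genes in thinned cells had a median of 0.541 over pairs of burst cells, 0.517 over pairs of regular cells and 0.520 over mixed pairs. These correlations are across genes, which are not independent, and pairs share cells. The most alike cell of each burst cell was another burst cell in 21 of 21, where 60.6% of the other cells were burst cells. For regular cells it was another regular cell in 6 of 13, where 36.4% of the others were regular cells. Over the 1000 genes with the most reads, the medians were 0.592 for burst, 0.574 for regular and 0.557 for mixed pairs, and the most alike cell was of the same type for 19 of 21 burst and 5 of 13 regular cells. Mixed pairs thus had the lowest median there, whereas over all measured genes regular pairs had it.

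The 25 CA1 pyramidal cells of the same series were prepared with version 3 of the kit, so levels are set side by side and not compared. Cntn6 had 0.127 pooled CPM in CA1 cells, Cntn4 0.729, Fn1 0.0317, Cdh6 8.81, Serpina3n 39.9 and Col6a1 44.4 CPM. Neurod6 had 659 CPM and Fibcd1 415 CPM there. Of the genes past the rule in regular cells, Figf had 0.0951 CPM and Grik4 0.0634 CPM in CA1 cells.

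Among the genes of at least 100 pooled CPM in the higher type, 18 were past the rule in each direction, and several lie outside the naming rule and were picked out here after their values were seen. Nnat, neuronatin, an imprinted membrane protein, had 251 CPM in burst and 948 CPM in regular cells (ratio 3.78, interval 3.67 to 3.90; log2 ratio −1.92, and −1.25 without regular cell 4). Matn2, a matrilin of the extracellular matrix, had 22.1 and 139 CPM, with log2 ratios of −2.81 in the upper and 4.15 in the lower run of label numbers. Camk1, a calcium/calmodulin-dependent kinase, had 53.4 and 175 CPM. On the burst side, Bhlhe40, a basic helix-loop-helix repressor, had 537 and 235.4 CPM (ratio 2.28, interval 2.20 to 2.37). Fstl5, a follistatin-like protein, had 127.3 and 43.7 CPM, and Cpne8, a calcium-binding copine, 138 and 42.0 CPM.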

How the data were processed

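Per the labels, the libraries are single cells prepared with SMARTer and Nextera reagents. Tools named in the submitters' processing notes are STAR, HTSeq, FastQC, Trim Galore and cutadapt. Those notes list mm10 and hg19 as builds and give no version or role. The authors deposited raw read counts for 23337 gene symbols and 92 ERCC spike-ins, and every per-sample file matched the table. Whether counting used strand is not stated in the sources used here.

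Counts were scaled to CPM without spike-ins. Each type was treated as 1 sample, so no test was run. No doublet caller was used, since each library is labelled as 1 cell, and a type without a read was given 3 reads as a limit. Members, lists and rules were chosen with earlier results of these data known. Named were 10 preset genes, up to 15 genes each way (at least 20 pooled CPM, past the 2-fold rule, largest difference in the share of thinned cells with a read), and from each of 40 lists the members past the rule and the 2 highest and 2 lowest ratios. Of these 181 genes, those that bear on a comparison are printed. Some genes are not reported here. Coordinates are from GENCODE M21 (GRCm38, mm10). The rule was run on simulated cells with planted ratios and the same spread for every gene. The spread of real genes differs, so no rate of wrong calls in these data is drawn from it. Alternatives were TMM and RLE scaling (edgeR 4.0.16 in R 4.3.3), minima of 1 and 50 CPM, thinning to 200000 reads, medians over cells, leaving out cells, and runs of cell numbers. The ones that leave out cells by other markers than Mbp and Dcn, or regular cell 14, were chosen after seeing the data. Other software was scipy 1.17.1, pandas 2.3.3, numpy 2.4.6 and Python 3.11.15, with figures from matplotlib 3.10.9.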

Additional observations from a re-analysis of the deposited data

How the results depend on the processing

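The counts of genes past the rule in burst and in regular cells were 272 and 310 with TMM scaling, 266 and 312 with RLE scaling and 300 and 403 with thinned cells, and reached 294 and 359 at most with 1 cell left out. They were 46 and 50 with a minimum of 50 pooled CPM, 894 and 800 with a minimum of 1 pooled CPM, 404 and 604 without the leave-one-out condition, 412 and 754 in the cells above the gap in numbers, 677 and 310 below it, and 963 and 1103 by a difference of at least 1 in median log2(CPM + 1). With the cells over 500 CPM of other markers except Mbp and Dcn left out, a choice made after seeing the data, they were 719 and 484. The planned version with Mbp and Dcn left 1 burst and 0 regular cells and gave no value. Below the gap the log2 ratio reversed for 2310042E22Rik (−0.081), Pxdn (0.082), Ptgs2 (1.46), Kcns2 (0.087), Kcnh1 (0.077), Adra2c (−0.57), Sstr3 (2.53), Necab1 (3.05), Ncald (0.98), Fat4 (1.98) and Zbtb20 (1.76). Without the cells over 500 CPM it reversed for Cntn4 (−0.038), Mobp (−0.76), Mbp (−0.45), Cacna1i (−1.16), Hcn3 (0.74), Kcnab1 (1.44), Plxnd1 (2.04) and Zbtb20 (3.37). The cause was not tested; both settings leave 3 regular cells. The median log2 ratio of all measured genes was 0.01 with TMM scaling, −0.04 with thinned cells, −0.08 above and 0.04 below the gap. No paired analysis was possible because the cells carry no replicate numbers shared between the types and the result comes from no test. Genes under 10 pooled CPM could not pass the rule, and values given for such genes rest on few reads.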
